A study of Saccharomyces cerevisiae with 8 samples.

Results

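The proteasome subunit genes of budding yeast were examined across 4 strains in RNA-seq libraries of polyadenylated RNA. Members were the genes whose name is PRE, PUP, RPN or RPT followed directly by a number, together with SCL1. Of the 6120 genes in the count table, 34 met this rule. They comprised 32 genes for subunits of the 26S proteasome, the gene for their transcriptional regulator RPN4, and RPN14, which encodes an assembly chaperone of the regulatory particle and no stable subunit. All 34 passed the filter on low counts. No member overlapped another annotated gene or had a near-identical copy elsewhere in the genome.

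The parent was W303a, a MATa strain with ura3-52, trp1Δ2 and leu2-3_112 as well as his3-11, ade2-1 and can1-100, and the other strains share its background. The ubc9-6 strain carries a tandem repeat of the temperature-sensitive ubc9-1 allele at the UBC9 locus (ubc9-1:Tadh1:TRP1:ubc9-1), so the E2 enzyme that attaches SUMO is mutant there but made from more than a single copy of its gene. Tfg1-HA (TFG1-6XHA::K. lactis TRP1) carries an epitope tag on Tfg1, a subunit of the general transcription factor TFIIF, and Tfg1-K60,61R-HA (tfg1-K60,61R-6XHA::K. lactis TRP1) has in addition 2 lysines of Tfg1 replaced by arginine to lower its sumoylation, with an inadvertent N462Q substitution. Every strain was represented by 2 independent replicates, harvested in mid-log growth at 30°C in synthetic complete medium. The p-values below therefore set a difference against the spread between such replicates. In the main fit this spread was estimated over all 8 libraries together and not over the compared strains alone. All 3 derived strains carry a TRP1 marker that W303a lacks, so in a comparison with W303a the allele or tag and the marker cannot be told apart. The labels do not say whether the strains were grown and prepared together. A difference of that kind cannot be told apart from the strain either. The study asked how sumoylation of general transcription factors at promoters, that of Tfg1 in particular, affects transcription. It relied mainly on ChIP-seq of SUMO and RNA polymerase II and used RNA-seq to read steady-state transcript levels.

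Totals were between 26674458 and 34614232 counts per library, and each subunit gene had between 3146 and 20646 counts in each library. UBC9 stood at 74.1 and 75.6 CPM in W303a and at 184 and 190 CPM in ubc9-6. CPM is the count relative to the library total after TMM scaling. TFG1 had 196 and 201 CPM in W303a and 193 and 194 in ubc9-6. The libraries of the tagged strains lay below these, at 172 and 167 CPM in Tfg1-HA and 160 and 161 in Tfg1-K60,61R-HA. All 5 mating type a genes examined were expressed in every library and the 3 alpha-specific genes stayed at or below 5.95 CPM. The Tfg1-K60,61R-HA replicates stood further apart than the other pairs, with an SD of the log2 difference between replicates of 0.29 over all genes, against 0.14 to 0.18 in the other strains. Over the 32 subunits that SD was 0.07 in Tfg1-K60,61R-HA and 0.03 to 0.05 elsewhere. Counts and medians of the subunits that rest on these libraries are therefore given with and without each of them, and the fit with length and GC trends removed was run on all 8 libraries only. In a bulk culture, a change in the share of cells that express a transcript and a change in the amount per cell cannot be told apart.

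The 26S proteasome degrades proteins that carry ubiquitin chains. Its 20S core is a barrel of alpha rings, which gate the entrance, around beta rings, which hold the peptidase sites. The 19S regulatory particle caps the core. A ring of ATPases (Rpt proteins), with scaffold subunits and ubiquitin receptors, forms its base and unfolds substrates, and a lid removes their ubiquitin. The transcription factor Rpn4 binds the proteasome-associated control element (PACE, GGTGGCAAA) in promoters of subunit genes and is itself a very short-lived proteasome substrate, which forms a feedback loop that raises subunit synthesis when proteasome activity falls.

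The promoters of the subunit genes shared this element. The rule that chose the genes did not use it. The element is already known from promoters of such genes, so the shares below are a description and no independent test. In windows from 250 bases before to 50 bases after the start codon, taken from the RefSeq sequence of the R64 assembly (the same as sacCer3), GGTGGCAAA was present on either strand in 27 of the 32 subunit windows (84.4%) and in 70 of all 5921 protein-coding windows (1.18%). The other 5 subunit windows each held a copy with a single substitution, counted from 1 at the 5′ end of GGTGGCAAA. PRE5, PUP1 and RPN8 had G1A, giving AGTGGCAAA, which was in 42 of the 5921 windows (0.709%). RPN10 and RPN13 had A7G, giving GGTGGCGAA, which was in 25 windows (0.422%). These variants were picked out after the windows had been read. With up to 1 mismatch, 32 of 32 subunit windows and 446 of all windows (7.53%) held a match. Neither RPN4 nor RPN14 had one. The sites of the genes on which the results below turn are shown in the direction of the gene with 10 flanking bases on each side. Capitals mark the element, and TTTGCCACC is its reverse complement.
PRE9, exact, chrVII:761223-761251, + strand: ttaccctgcaGGTGGCAAAaaatttatag
PRE7, exact, chrII:141150-141178, + strand: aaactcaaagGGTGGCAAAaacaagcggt
SCL1, exact on the opposite strand, chrVII:475337-475365, - strand: cacacaccaaTTTGCCACCgtaaggatag
RPT4, exact on the opposite strand, chrXV:813802-813830, - strand: aatagtggaaTTTGCCACCgaagggaaag
RPN11, exact, chrVI:153259-153287, + strand: ggacctccaaGGTGGCAAAttcacaagaa
PUP1, G1A, chrXV:631891-631919, - strand: aacccggccgAGTGGCAAAataccaaaaa
PRE5, G1A, chrXIII:901552-901580, + strand: cctattatagAGTGGCAAAattaaaaatt
RPN8, G1A, chrXV:817085-817113, - strand: gggatacctcAGTGGCAAAtcgttactca
RPN13, A7G, chrXII:965656-965684, - strand: ttattcgcgaGGTGGCGAAagctttgcta
RPN10, A7G on the opposite strand, chrVIII:498968-498996, + strand: caggcgggttTTCGCCACCggaatttaca

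The matches lay at a similar distance from the gene start. The 33 matches within 1 mismatch began between 69 and 183 bases before the start codon, with a median of 120. Of the exact matches, 19 read in the direction of the gene and 8 in the opposite direction. PRE6, an alpha ring gene, had a second match with G4A nearer to its start codon.

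**Figure D1:**
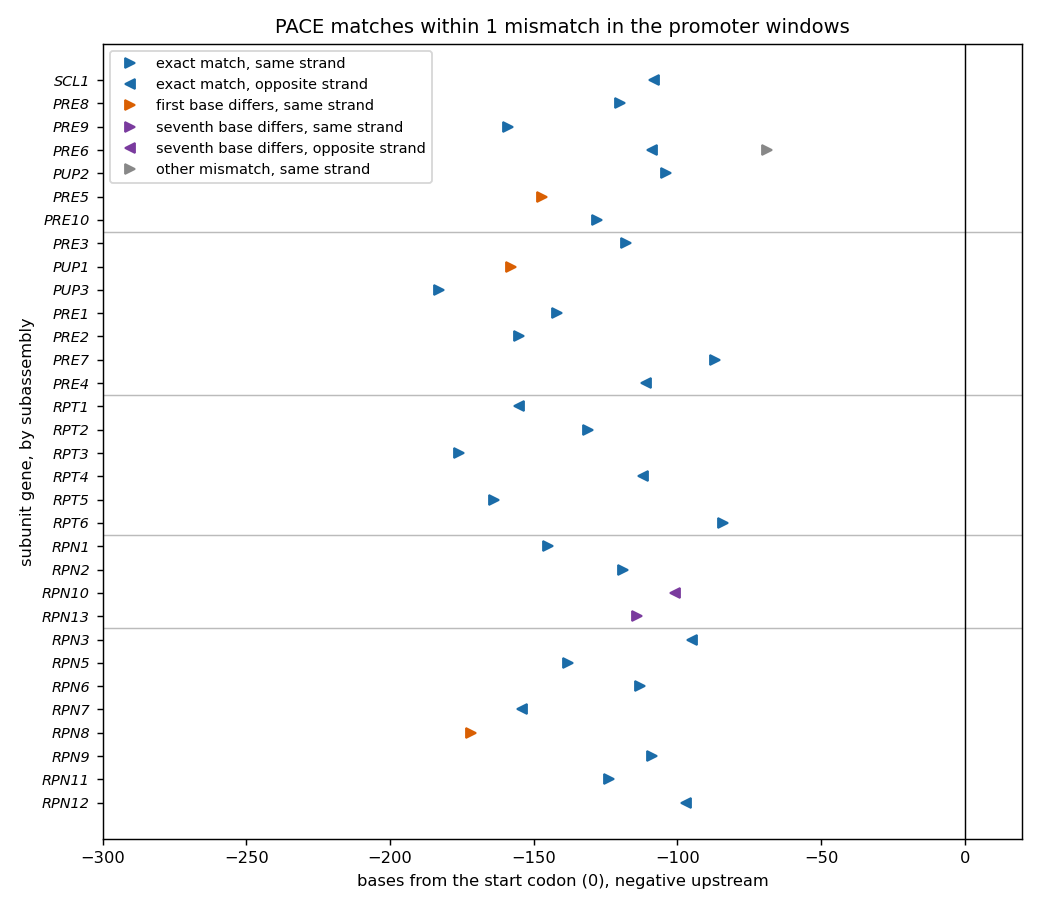
Positions of the PACE matches (triangles, pointing in the direction in which the element reads) in the promoter windows of the 32 subunit genes, by subassembly from the alpha ring (top) to the lid (bottom), in bases from the start codon. Every gene has at least 1 match, and the 33 matches begin between 69 and 183 bases before the start codon.

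The subunit genes were expressed within a narrow range of levels. Levels of different genes are compared as CPM per kb of exon length, which for these genes is the coding length (all 34 lengths were multiples of 3). In W303a the 32 subunits ranged from 153 CPM per kb for RPN1, a scaffold of the base, to 344 CPM per kb for PUP3, a beta ring subunit, a 2.25-fold range. Of the 32 subunits, 31 lay within 1.5-fold of the median of 239.6 CPM per kb, which was above 88.0% of all genes tested. The regulator RPN4 was lower, at 52.5 and 50.6 CPM per kb in W303a, and the chaperone RPN14 stood at 26.3 and 25.8 CPM per kb.

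The 14 genes of the 20S core had a higher level per kb than the 18 genes of the 19S particle. In W303a their median levels were 285 and 203 CPM per kb, respectively. The 20S genes are also shorter, with coding lengths of 597 to 867 bases against 471 to 2982 bases, and the part of length in this difference was not tested. PUP1, the catalytic subunit with trypsin-like activity, was the lowest of the 20S genes in W303a, at 199 and 187 CPM per kb, and RPN13, a ubiquitin receptor and the shortest member of the 19S set, was its highest, at 281 and 282 CPM per kb.

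The order of the genes was nearly the same in every strain. RPN1 was the lowest subunit in all 4. PUP3 was the highest in W303a and ubc9-6, and PRE5, an alpha ring subunit, in both Tfg1 strains. Both PUP3 libraries lay above both PRE5 libraries in W303a, whereas the libraries of these genes overlapped in Tfg1-HA. In W303a, PUP3 stood at 344 ± 1.89 and PRE5 at 337 ± 1.56 CPM per kb (SD, n = 2), and in Tfg1-HA PRE5 stood at 378 ± 14.2 and PUP3 at 365 ± 12.8 CPM per kb. The Spearman correlation of the 32 levels between pairs of strains, given as a description, was 0.94 to 0.99. The highest level exceeded the lowest 2.29-fold in ubc9-6, 2.48-fold in Tfg1-HA and 2.70-fold in Tfg1-K60,61R-HA. The ratio of the 20S to the 19S median level was 1.37 and 1.43 in the W303a libraries, 1.52 and 1.48 in ubc9-6, 1.54 and 1.55 in Tfg1-HA and 1.69 and 1.48 in Tfg1-K60,61R-HA. Every library of the derived strains was above both W303a libraries in this ratio. The 20S genes are the shorter ones, and changes against W303a went with gene length over all genes in the Tfg1 strains. The Spearman correlation was -0.23 in Tfg1-HA, -0.30 in Tfg1-K60,61R-HA and -0.03 in ubc9-6. With length and GC trends removed, the median changes of 20S and 19S genes lay close together, as given below. The part of length in this ratio was not tested. This ratio is given as a description, and the exact permutation test for a single value cannot go below a two-sided p of 0.333 in groups of 2.

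**Figure D2:**
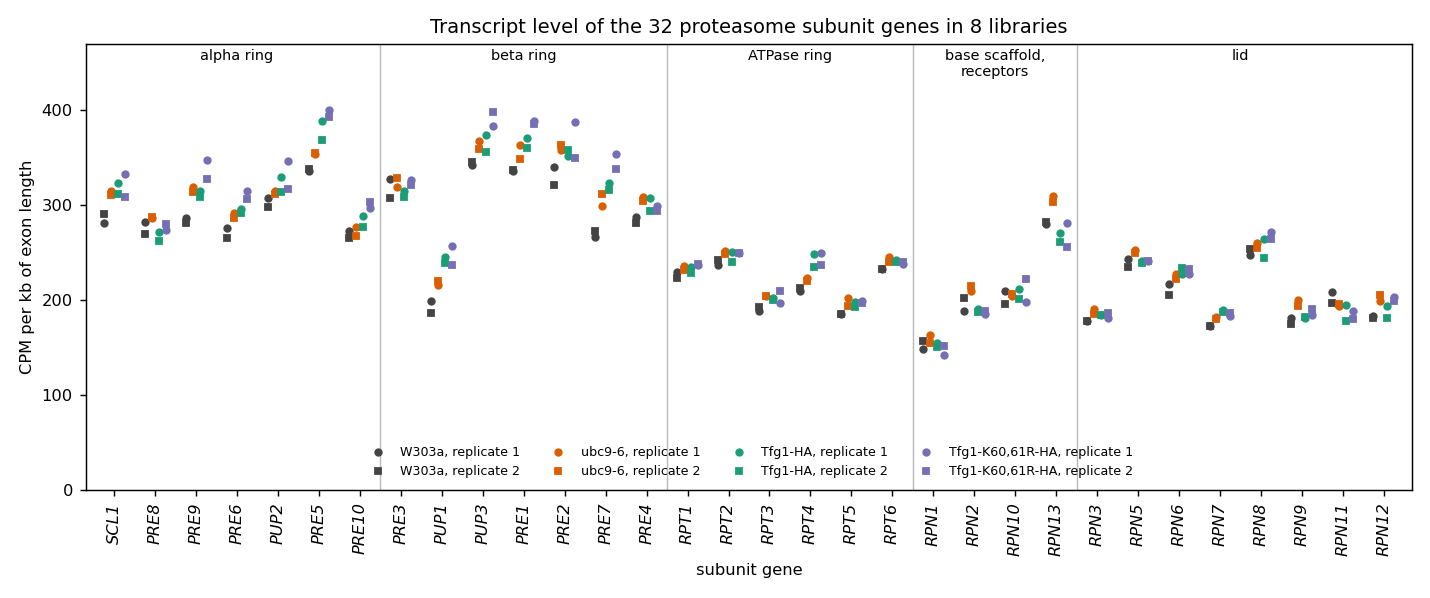
Level of the 32 subunit genes (CPM per kb of exon length, linear axis) in each of the 8 libraries, coloured by strain with replicate 1 as a circle and replicate 2 as a square, ordered by subassembly. Alpha and beta ring genes sit above most 19S genes, with PUP1 and RPN13 as exceptions, and replicates lie close to each other.

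The first comparison asked how the genes differ in ubc9-6, where the SUMO-conjugating enzyme is mutant. RPN4 rose, and so did the subunit genes PRE9 and PRE7, while the other 30 subunits were not called. RPN4 had 83.8 and 80.8 CPM in W303a, 101 and 97.8 in ubc9-6, 91.0 and 94.6 in Tfg1-HA, and 99.5 and 97.3 in Tfg1-K60,61R-HA. Its W303a libraries were the lowest of the 8 and did not overlap those of any other strain. The log2 fold change in ubc9-6 was 0.27 ± 0.04 (SE), a 1.21-fold rise (quasi-likelihood test of edgeR, adjusted over 5909 genes by Benjamini-Hochberg, adjusted p = 0.00528). Without W303a replicate 2 the call was lost (adjusted p = 0.0556), and over the 8 fits that each left out 1 library the adjusted p lay between 0.00256 and 0.0556.

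Of the 32 subunits, 2 were called higher in ubc9-6 and 0 lower, where 11.4% of all genes tested were called higher and 9.36% lower. A share of 2 in 32 is below that background. At an unadjusted p under 0.05 there were 9 subunits (28.1%), all with estimates above 0, where 36.8% of all genes had such a p, and DESeq2 called 3 higher and 0 lower. Their median log2 fold change was 0.08, beside 0.00 for all genes tested (-0.0038), and the estimates ran from -0.06 to 0.18. With length and GC trends removed, as described below, the median was 0.0388 and 0 subunits were called. Estimates were above 0 for 31 of the 32 subunits and for 2903 of the 5909 genes. Both ubc9-6 libraries lay above both W303a libraries for 27 subunits (84.4%), which held for 35.0% of all genes, and below them for 1 subunit, RPN11, which held for 36.4% of all genes. The genes were measured in the same 4 libraries, so these counts are not independent observations. Summed over the 32 genes, subunit transcripts stood at 7951 and 7907 CPM in W303a and at 8442 and 8352 CPM in ubc9-6.

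**Figure D3:**
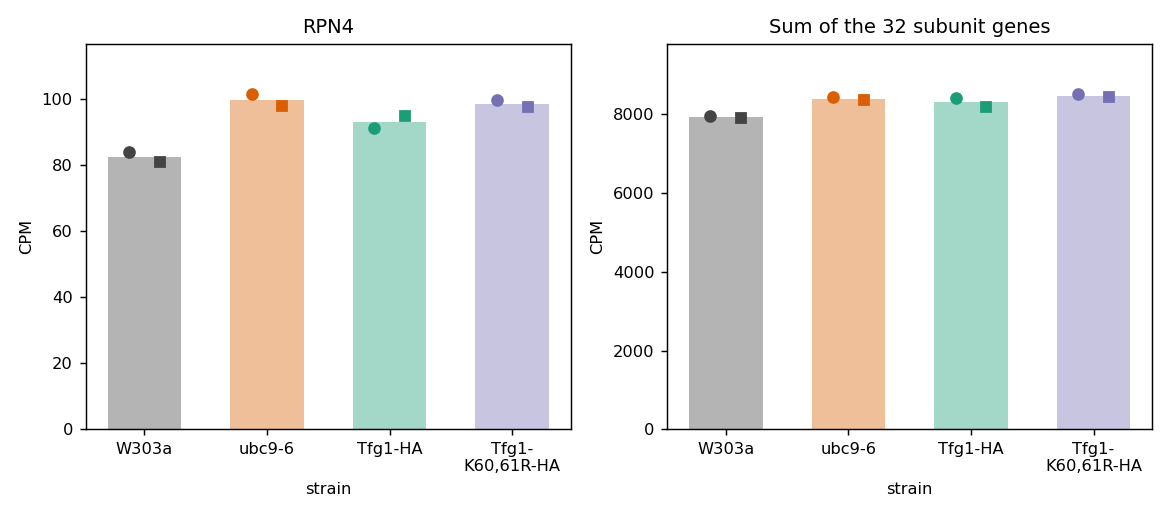
CPM of RPN4 (left) and of the 32 subunit genes summed (right) in the 4 strains, with bars at the mean of 2 libraries and points for each library (circle, replicate 1, and square, replicate 2). Both axes start at 0. The W303a libraries are the lowest in both panels, at 83.8 and 80.8 CPM for RPN4 and at 7951 and 7907 CPM for the sum.

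In the alpha ring, PRE9 rose the most in ubc9-6. It encodes the only alpha subunit that yeast can live without. PRE9 had 222 and 219 CPM in W303a, 248 and 244 in ubc9-6, 244 and 239.7 in Tfg1-HA, and 271 and 255 in Tfg1-K60,61R-HA. The W303a libraries were the lowest, and the log2 fold change in ubc9-6 was 0.16 ± 0.05 (adjusted p = 0.0441). PRE10 had the lowest estimate of the ring, with 237 and 230.0 CPM in W303a and 240.1 and 232 in ubc9-6, and these libraries overlapped.

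In the beta ring, PRE7 rose, with a log2 fold change of 0.18 ± 0.05 (adjusted p = 0.0319). PRE7 had 194 and 198 CPM in W303a, 217 and 226 in ubc9-6, 234 and 229 in Tfg1-HA, and 257 and 245 in Tfg1-K60,61R-HA. No strain overlapped W303a. PUP1 had an estimate of the same size, 0.18 ± 0.05, and was not called (adjusted p = 0.0527). PRE3, which carries the caspase-like site, had 212 and 199.6 CPM in W303a and 207 and 213 in ubc9-6, and these libraries overlapped. PRE2, which carries the chymotrypsin-like site, had an estimate of 0.12 ± 0.06 and was not called (adjusted p = 0.157).

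The calls of PRE9 and PRE7 depended on all 4 libraries. Without W303a replicate 1 the adjusted p was 0.154 for PRE9 and 0.168 for PRE7, without W303a replicate 2 it was 0.186 and 0.113, without ubc9-6 replicate 1 it was 0.161 and 0.0676, and without ubc9-6 replicate 2 it was 0.177 and 0.219. Since the spread is shared by all strains, Tfg1 libraries also moved them. Without Tfg1-HA replicate 1 PRE9 was not called (adjusted p = 0.0641), and without Tfg1-HA replicate 2 neither gene was (adjusted p = 0.0659 for PRE9 and 0.0501 for PRE7). Without Tfg1-K60,61R-HA replicate 1 or 2, by contrast, 6 and 7 subunits were called higher, and a fit of only the 4 libraries compared called 7, which were SCL1, PRE9, PUP1, PRE7, RPN13, RPN9 and RPN12.

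In the ATPase ring no gene was called in ubc9-6, although both ubc9-6 libraries were above both W303a libraries for all 6 RPT genes. RPT3 had the highest estimate of the ring (0.10 ± 0.05), with 243 and 248 CPM in W303a and 263 in each ubc9-6 library. RPT1 had the lowest (0.05 ± 0.04), with 323 and 313 CPM in W303a and 332 and 326 in ubc9-6.

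Among the scaffold and ubiquitin receptor genes, the receptor RPN13 had the highest estimate in ubc9-6 (0.12 ± 0.05, adjusted p = 0.135). RPN13 had 132 and 133 CPM in W303a, 146 and 143 in ubc9-6, 128 and 123 in Tfg1-HA, and 133 and 120.4 in Tfg1-K60,61R-HA. The ubc9-6 libraries were the highest of the 8. RPN10, the other dedicated ubiquitin receptor, had 169 and 158 CPM in W303a, 165 and 167 in ubc9-6, 171 and 162 in Tfg1-HA, and 159.9 and 179 in Tfg1-K60,61R-HA, and all strains overlapped. The scaffold RPN2 had an estimate of 0.12 ± 0.05 and was not called (adjusted p = 0.0933).

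In the lid, RPN12 had the highest estimate in ubc9-6 (0.15 ± 0.05, adjusted p = 0.0578). RPN12 had 151 and 149.7 CPM in W303a, 164 and 169.8 in ubc9-6, 159.8 and 149.6 in Tfg1-HA, and 168 and 164 in Tfg1-K60,61R-HA. RPN11, which encodes the deubiquitinating enzyme of the lid, was the one subunit with an estimate below 0 (-0.06 ± 0.06, adjusted p = 0.511). RPN11 had 192 and 181 CPM in W303a, 179 and 181 in ubc9-6, 179 and 164 in Tfg1-HA, and 173 and 166 in Tfg1-K60,61R-HA. Its W303a libraries were the highest of the 8. RPN14, the assembly chaperone, had 33.0 and 32.4 CPM in W303a, 29.6 and 30.6 in ubc9-6, 31.0 and 30.6 in Tfg1-HA, and 30.3 and 29.6 in Tfg1-K60,61R-HA. Its W303a libraries were the highest of the 8, and the estimate for ubc9-6, -0.12 ± 0.05, was not called (adjusted p = 0.155).

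The second comparison set Tfg1-HA against W303a, which differ in the tag and its marker. Any difference in growth or preparation between these strains, on which the labels are silent, would enter it as well. PUP1, PRE7 and RPT4 rose the most among the subunits, and RPN4 rose as well. Of the 32 subunits 7 were called higher and 0 lower, where 21.5% of all genes tested were called higher and 21.5% lower. A share of 7 in 32 is near that background. The 7 were SCL1, PRE9 and PRE5 of the alpha ring, PUP1 and PRE7 of the beta ring, RPT4 of the ATPase ring and RPN7 of the lid. At an unadjusted p under 0.05 there were 10 (31.2%), all with estimates above 0, where 51.8% of all genes had such a p, and DESeq2 called 6 higher and 0 lower. The median log2 fold change was 0.07, beside 0.00 for all genes tested (-0.00216), and the estimates ran from -0.13 to 0.33. Both Tfg1-HA libraries lay above both W303a libraries for 20 subunits (62.5%), which held for 38.0% of all genes, and below them for 2, RPN13 and RPN11, which held for 39.3%. Summed subunit transcripts stood at 8414 and 8182 CPM in Tfg1-HA.

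PUP1 differed the most. It had 156 and 147 CPM in W303a, 169.7 and 173 in ubc9-6, 192 and 188 in Tfg1-HA, and 202 and 186 in Tfg1-K60,61R-HA. The 4 Tfg1 libraries were above the 4 others. The log2 fold change in Tfg1-HA was 0.33 ± 0.05, a 1.25-fold rise (adjusted p = 0.00193). PRE7 rose by 0.24 ± 0.05 on the log2 scale (adjusted p = 0.00379). PUP1 and PRE7 were called under every alternative setting tried for this comparison, with adjusted p of at most 0.0242 and 0.0332 in the fits that left out 1 library.

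PRE5 had 237 and 238 CPM in W303a, 249.9 and 250.3 in ubc9-6, 274 and 259.6 in Tfg1-HA, and 282 and 277 in Tfg1-K60,61R-HA. It was lowest in W303a without overlap, and its log2 fold change in Tfg1-HA was 0.17 ± 0.04 (adjusted p = 0.0165). PRE8 of the same ring had 212 and 203 CPM in W303a and 205 and 198 in Tfg1-HA, and these libraries overlapped. RPT4 had 276 and 279.8 CPM in W303a, 294 and 289 in ubc9-6, 327 and 309 in Tfg1-HA, and 329 and 312 in Tfg1-K60,61R-HA. Its rise of 0.19 ± 0.05 (adjusted p = 0.0123) contrasted with RPT2, the lowest of the ring, which had 312 and 319 CPM in W303a and 329 and 315 in Tfg1-HA with overlap.

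In the scaffold and receptor group no gene was called in Tfg1-HA, and only RPN10 of its 4 genes had an estimate above 0 (0.02 ± 0.06). RPN13 stood at -0.08 ± 0.05 (adjusted p = 0.255). In the lid, RPN6, a scaffold subunit that clamps the lid to the core, had the highest estimate (0.13 ± 0.05, adjusted p = 0.054), with 283 and 267 CPM in W303a and 297 and 305 in Tfg1-HA. RPN11 had the lowest of the 32, at -0.13 ± 0.06 (adjusted p = 0.108).

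RPN4 rose by 0.17 ± 0.04 on the log2 scale in Tfg1-HA, or 1.13-fold (adjusted p = 0.0137). Without W303a replicate 2 or Tfg1-HA replicate 2 the call was lost (adjusted p = 0.097 and 0.0912), with a range of 0.00933 to 0.097 over the fits that left out 1 library. The count of subunits called higher fell to 2 without W303a replicate 1, W303a replicate 2 or Tfg1-HA replicate 1 and to 4 without Tfg1-HA replicate 2, ubc9-6 replicate 1 or ubc9-6 replicate 2, and it was 10 without either Tfg1-K60,61R-HA library.

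**Figure D4:**
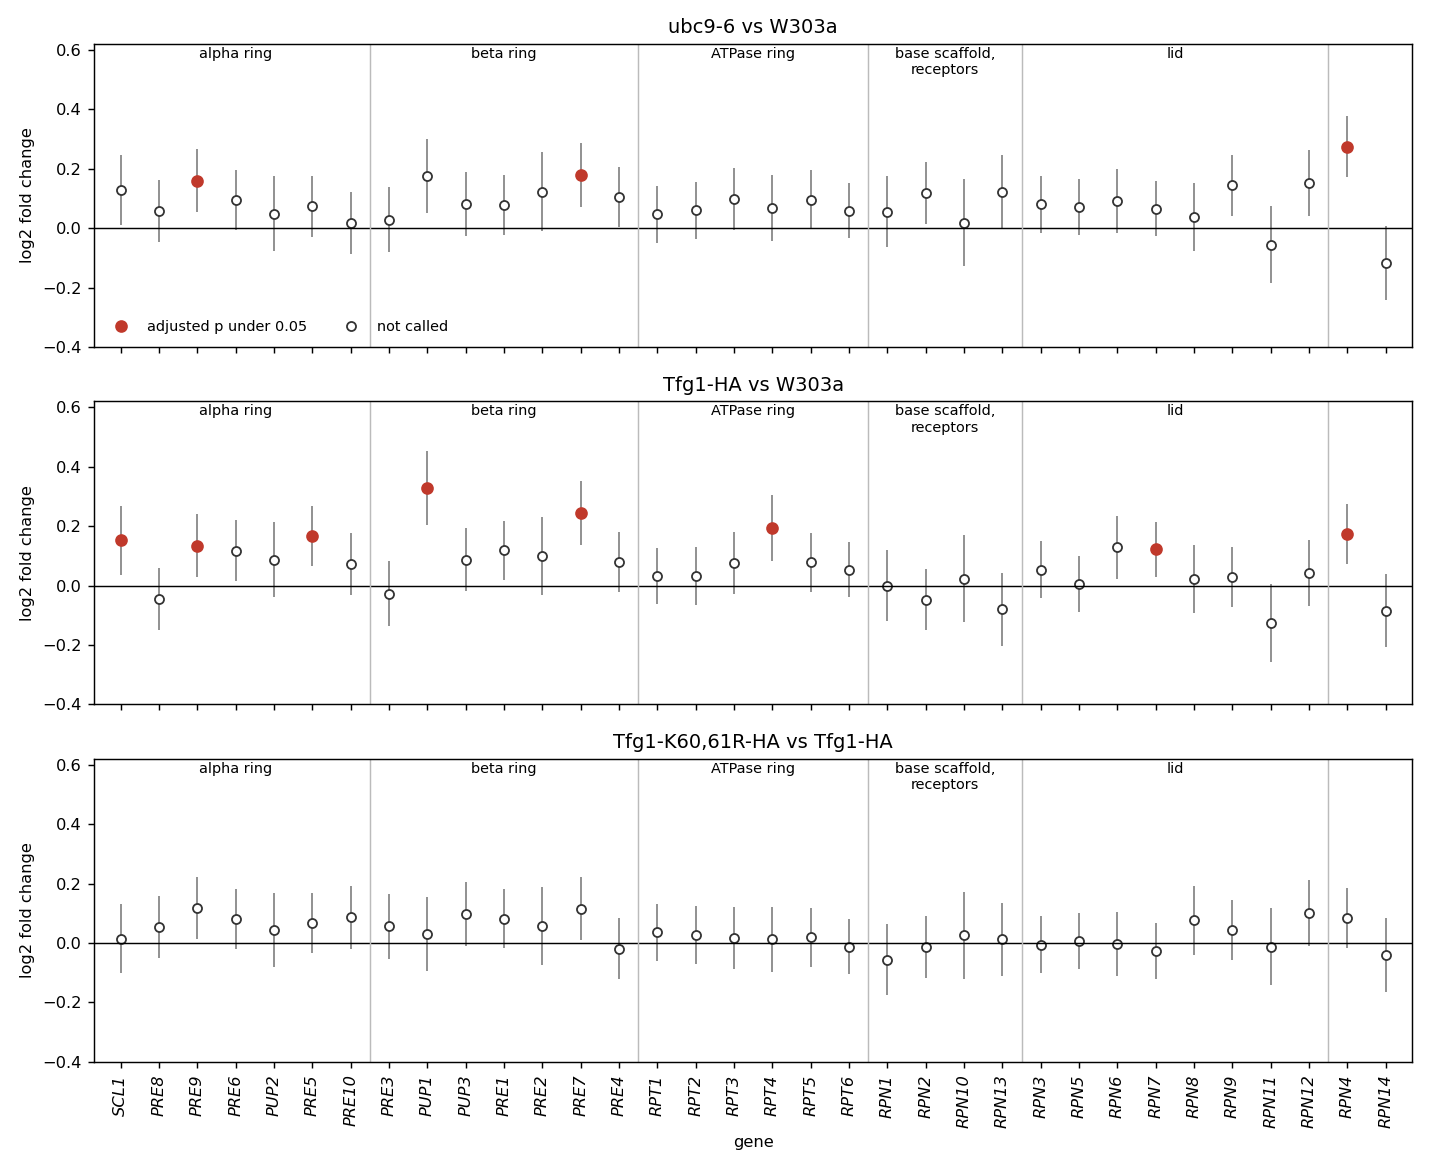
Log2 fold change (points) with its 95% confidence interval (lines) from the edgeR fit for the 32 subunit genes by subassembly, RPN4 and RPN14, in 3 comparisons. Filled points are genes with an adjusted p under 0.05, of which the subunits number 2 in ubc9-6 and 7 in Tfg1-HA against W303a and 0 in Tfg1-K60,61R-HA against Tfg1-HA.

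The third comparison isolates the lysine substitutions, and N462Q, on the tagged background. No change of a proteasome gene passed the test. Of the 32 subunits 0 were called higher and 0 lower, where 0% of all genes tested were called in either direction with edgeR. At an unadjusted p under 0.05 there were 2 subunits (6.25%), where 9.68% of all genes had such a p. They were PRE9 (0.12 ± 0.05, adjusted p = 0.511) and PRE7 (0.12 ± 0.05, adjusted p = 0.512). DESeq2, which called 36 genes in all, gave an adjusted p for 2 of the 32 subunits and called neither. The median log2 fold change of the subunits was 0.03 and the estimates ran from -0.06 to 0.12. The 95% confidence intervals of the 32 genes reached from -0.18 to 0.22 at their extremes, and changes within the interval of each gene are not excluded. RPN4 had an estimate of 0.08 with an interval of -0.02 to 0.19 (adjusted p = 0.541). Both Tfg1-K60,61R-HA libraries lay above both Tfg1-HA libraries for 13 subunits (40.6%), which held for 18.4% of all genes, and below them for 1, RPN7, which held for 17.4%. Of the 13, 9 belong to the 20S core (64.3% of its genes), where 28.1% of all genes of the length of 20S genes lay above. The Spearman correlation of the log2 fold change with gene length in this comparison, given as a description, was -0.29 over all genes and -0.60 over the 32 subunits. Without Tfg1-K60,61R-HA replicate 2 the number of genes called among all rose from 0 to 446, but 0 subunits were called, and without replicate 1 the counts were 0 and 0. The subunit median was 0.04 and 0.02 in these fits.

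When Tfg1-K60,61R-HA was set against W303a, PRE7 and PUP1 again had the largest rises, and RPN4 rose. This comparison shares the W303a libraries with those of ubc9-6 and Tfg1-HA and is no separate evidence of their direction. Of the 32 subunits 11 were called higher and 0 lower, where 24.9% of all genes tested were called higher and 24.5% lower. The 11 were SCL1, PRE9, PRE6, PRE5 and PRE10 of the alpha ring, PUP1, PUP3, PRE1 and PRE7 of the beta ring, RPT4, and the lid gene RPN12. At an unadjusted p under 0.05 there were 16 of the 32, where 56.5% of all genes had such a p, and of the 16 RPN11 was the one with an estimate below 0 (-0.14 ± 0.06, adjusted p = 0.0758). DESeq2 called 11 higher and 0 lower. The median log2 fold change was 0.10, beside 0.00 for all genes (0.000915), and the largest estimates were 0.36 ± 0.05 for PRE7 (adjusted p = 0.000472) and 0.36 ± 0.05 for PUP1 (adjusted p = 0.00101). RPN4 rose by 0.26 ± 0.04 (adjusted p = 0.00184) and was called in every fit that left out 1 library (adjusted p of 0.00247 to 0.0212). Both libraries were above both W303a libraries for 24 subunits (75.0%), which held for 37.0% of all genes, and below them for 2, RPN2 and RPN11, which held for 37.3%. Without Tfg1-K60,61R-HA replicate 1 and 2 the subunits called higher were 10 and 13. They were 6 without either W303a library.

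In the main fit, most called subunits in the Tfg1 strains belonged to the 20S core. This did not hold with length and GC trends removed, as given below, and the difference between core and regulatory particle was not tested. In Tfg1-HA 5 of the 14 20S genes and 2 of the 18 19S genes were called higher, beside 25.4% of all genes of the length of 20S genes. In Tfg1-K60,61R-HA against W303a these were 9 and 2, beside 33.1% of the genes of that length. The median log2 fold changes of the 20S genes were 0.09 in ubc9-6, 0.11 in Tfg1-HA and 0.18 in Tfg1-K60,61R-HA against W303a, and those of the 19S genes were 0.07, 0.03 and 0.06. Without Tfg1-K60,61R-HA replicate 1 and 2, the 20S median of that strain was 0.18 and 0.21, and its 19S median was 0.07 and 0.05. Gene length moved with the outcome over the whole genome in these strains. The Spearman correlation of the log2 fold change with length over all 5909 genes, given as a description, was -0.03 in ubc9-6, -0.23 in Tfg1-HA and -0.30 in Tfg1-K60,61R-HA, all against W303a. The 800 genes within the length range of the 20S genes had medians of -0.01, 0.06 and 0.08 in these comparisons.

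When the trend of each library with gene length and GC content was removed, an alternative chosen after the data had been seen, the 20S medians fell to 0.03 in ubc9-6, 0.04 in Tfg1-HA and 0.05 in Tfg1-K60,61R-HA, beside 19S medians of 0.04, 0.05 and 0.05 in the same fits. No subunit was called in ubc9-6 in that fit. In Tfg1-HA, PUP1, PRE7, RPT4 and RPN7 were called higher and RPN13 and RPN11 lower. In Tfg1-K60,61R-HA against W303a, PRE9, PUP1, PRE7, RPT4, RPN3, RPN7, RPN8 and RPN9 were called higher, RPN13 and RPN11 lower, and PUP3 turned from 0.18 to -0.01 and was not called (adjusted p = 0.921). RPN4 remained called in all 3.

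**Figure D5:**
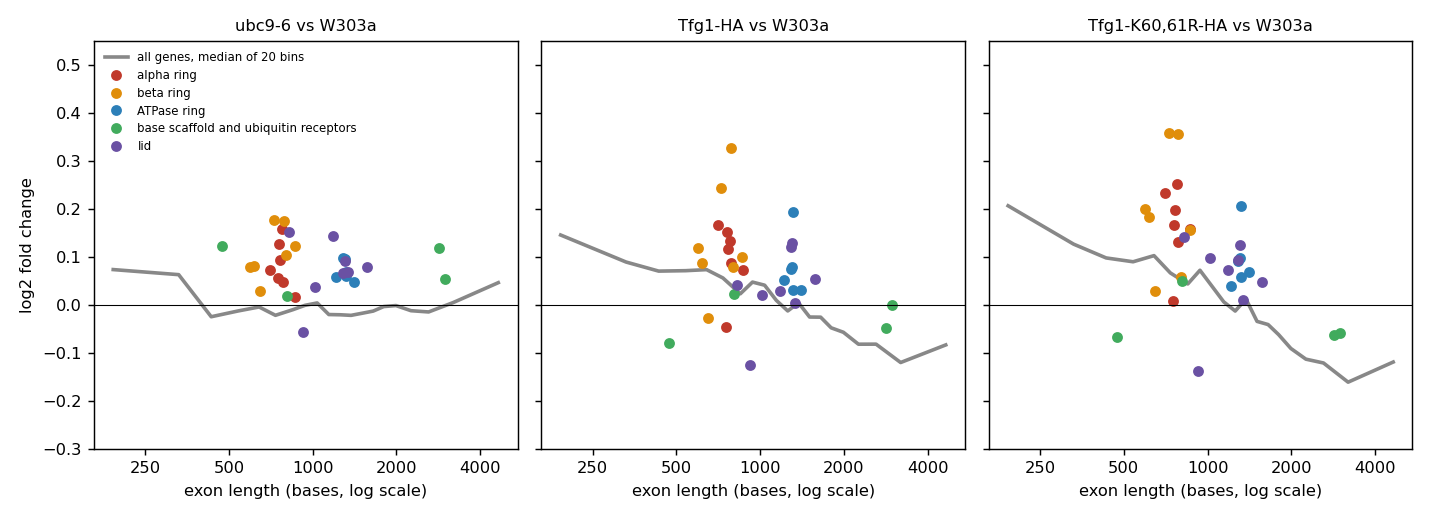
Log2 fold change against coding length (log axis, in bases) for the 32 subunit genes, coloured by subassembly, in 3 comparisons with W303a. The grey line gives the median of all tested genes in 20 bins of length, which falls with length in the Tfg1 strains, where the Spearman correlations are -0.23 and -0.30, and is flatter in ubc9-6 (-0.03).

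The difference between the effect of ubc9-6, relative to W303a, and that of the K60,61R substitutions, relative to Tfg1-HA, was tested directly. Of the 32 subunits 0 were called in either direction, where 3.22% of all genes tested were called higher and 2.86% lower. At an unadjusted p under 0.05 there were 0 subunits, and DESeq2 called 0. The median difference was 0.06 on the log2 scale, with 95% intervals that reached from -0.23 to 0.32 over the genes. Without Tfg1-K60,61R-HA replicate 1 and 2 the median was 0.06 and 0.03, and 0 subunits were called. For RPN4 the difference was 0.19 ± 0.06 (adjusted p = 0.118), and 0.20 and 0.175 without these libraries (adjusted p = 0.105 and 0.133).

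In Tfg1-HA, subunit genes with an exact PACE and those with a substituted one both included called genes. The 27 genes with an exact match had median log2 fold changes of 0.08 in ubc9-6 and 0.08 in Tfg1-HA, with 2 and 5 genes called higher, and the 5 genes with a substitution had medians of 0.07 and 0.02, with 0 and 2 called higher. Of the 3 genes with G1A, PUP1 and PRE5 were among the largest rises in Tfg1-HA (0.33 and 0.17), whereas RPN8, a lid subunit that pairs with RPN11, stood at 0.02 ± 0.05. The receptor genes RPN13 and RPN10, both with A7G, stood at -0.08 and 0.02. RPN11, with an exact match, had the lowest estimate. Outside the members 43 genes had an exact PACE in their window, of which 12 rose and 3 fell in ubc9-6, while 11 rose and 10 fell in Tfg1-HA. These are shares of 27.9% and 6.98% in ubc9-6, beside 11.4% and 9.36% of all genes, and of 25.6% and 23.3% in Tfg1-HA, near the 21.5% of all genes in each direction. Their median log2 fold changes were 0.06 and -0.02.

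Assembly and associated factors included larger changes than the subunits. Of the 18 genes of this list 8 rose and 1 fell in ubc9-6, with a median log2 fold change of 0.17, and 7 rose and 2 fell in Tfg1-HA, with a median of 0.11. For this list and those that follow, the shares over all genes are again 11.4% higher and 9.36% lower in ubc9-6 and 21.5% in each direction in Tfg1-HA, against 44.4% and 5.56%, and 38.9% and 11.1%, for the assembly factors. These lists were chosen with earlier results of these data known, so their shares are a description and no independent test. TMA17, a stress-induced chaperone of base assembly, rose from 86.2 and 83.9 CPM in W303a to 102 and 108 in ubc9-6 (0.30 ± 0.05, adjusted p = 0.00623) and to 105 and 104 in Tfg1-HA (0.30 ± 0.05, adjusted p = 0.00209). ECM29, which tethers the core to the regulatory particle, had 96.5 and 104 CPM in W303a, 135 and 127 in ubc9-6 and 99.6 and 107 in Tfg1-HA, and the ubc9-6 libraries were the highest (0.38 ± 0.07, adjusted p = 0.00745). HUL5, a proteasome-bound ubiquitin ligase, rose in ubc9-6 (0.28 ± 0.04, adjusted p = 0.0031), as did SPG5, a proteasome factor of stationary phase (0.47 ± 0.09, adjusted p = 0.00906). NAS2, a base assembly chaperone, rose in Tfg1-HA (0.27 ± 0.07, adjusted p = 0.0137). CIC1, an adaptor of the proteasome that also acts in ribosome assembly, fell in both (-0.23 in ubc9-6, adjusted p = 0.028, and -0.45 in Tfg1-HA, adjusted p = 0.000587).

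Of the 26 ubiquitin and shuttle factor genes, 7 rose and 0 fell in ubc9-6, with a median log2 fold change of 0.06, and 9 rose and 4 fell in Tfg1-HA, with a median of 0.08. The shares that rose were 26.9% and 34.6%. Among the shuttle factors that carry ubiquitinated proteins to the proteasome, DDI1 rose in ubc9-6 (0.32 ± 0.05, adjusted p = 0.00359). DSK2 had 152 and 131 CPM in W303a, 130 and 129 in ubc9-6, 246 and 229 in Tfg1-HA, and 222 and 234 in Tfg1-K60,61R-HA, with the 4 Tfg1 libraries above the 4 others (0.75 ± 0.07 in Tfg1-HA, adjusted p = 0.000174). The polyubiquitin gene UBI4 rose in both (0.20 and 0.40, adjusted p = 0.0238 and 0.000389), and so did the ubiquitin-conjugating enzyme gene UBC5 (0.69 and 0.55, adjusted p = 0.0021 and 0.00213). UBI4 and UBC5 have close relatives with similar sequence, and their counts are uncertain to that extent. UBR2 and MUB1 encode the ubiquitin ligase that marks Rpn4 for degradation. UBR2 was called higher in ubc9-6 (0.21 ± 0.06, adjusted p = 0.0382) and lower in Tfg1-HA (-0.20 ± 0.06, adjusted p = 0.0257), and MUB1 was called lower in Tfg1-HA (-0.31 ± 0.04, adjusted p = 0.000932).

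Among the transcription factors that act on the RPN4 promoter, YAP1, the oxidative stress regulator, was the one called in ubc9-6 and in Tfg1-HA. It had 160 and 163 CPM in W303a, 193 and 192 in ubc9-6, 195 and 187 in Tfg1-HA, and 194 and 188 in Tfg1-K60,61R-HA, with W303a lowest and apart (0.25 ± 0.045 in ubc9-6, adjusted p = 0.00766, and 0.24 ± 0.045 in Tfg1-HA, adjusted p = 0.0034). PDR1, PDR3 and HSF1 were not called in either comparison. In Tfg1-K60,61R-HA against W303a, HSF1, the heat shock regulator, was called lower (-0.11 ± 0.04, adjusted p = 0.0432). Of the 8 genes of the pleiotropic drug resistance network, 0 were called in ubc9-6 (3 at an unadjusted p under 0.05), and 1 was higher and 2 lower in Tfg1-HA, where the drug efflux pump gene PDR5 fell the most (-0.51 ± 0.05, adjusted p = 0.000219).

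Among cytosolic chaperone genes, HSP26 had the largest change. Of 16 such genes 9 rose (56.2%) and 2 fell in ubc9-6, with a median log2 fold change of 0.29, and 9 rose and 2 fell in Tfg1-HA, with a median of 0.26. The other 5 genes were not called in each comparison. The small heat shock protein gene HSP26 had 20.6 and 20.7 CPM in W303a, 133 and 160 in ubc9-6, 184 and 229 in Tfg1-HA, and 332 and 220 in Tfg1-K60,61R-HA, with W303a lowest and apart (2.83 ± 0.21 in ubc9-6, adjusted p = 9.58e-05). BTN2, a sorting factor for misfolded proteins, rose in ubc9-6 (0.72 ± 0.08, adjusted p = 0.000595). Of the 12 SUMO pathway genes, UBC9, altered in the strain itself, was the one called in ubc9-6, while 2 rose and 5 fell in Tfg1-HA. In none of these lists was a gene called between Tfg1-K60,61R-HA and Tfg1-HA with edgeR, where the ubiquitin, chaperone and SUMO lists each had 1 gene at an unadjusted p under 0.05 and the other 3 lists had 0.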

How the data were processed

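RNA-seq of polyadenylated RNA was analysed in 8 libraries, 2 from each of 4 yeast strains, grouped by the submitters' labels. The authors deposited raw counts of read pairs per gene, made with featureCounts of Subread 2.0.0 over exons of the sacCer3 RefSeq annotation. The file header shows no option for strand, multiple mapping or overlapping features, so overlapping and antisense genes cannot be told apart and near-identical copies lose reads. The submitters' processing notes also name HISAT2 2.1.0 and edgeR 3.32.1. The summed exon length of each gene, in bases, was deposited with the counts. A pair of tables of the authors' own comparisons, with log2 fold changes, mean log2 CPM, likelihood ratios, p-values and false discovery rates, was not used. The series' ChIP-seq data were not analysed here.

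Counts were tested with edgeR 4.0.16 (quasi-likelihood, TMM, default filter on low expression) in R 4.3.3, with 1 mean per strain over all 8 libraries, and p-values were adjusted by Benjamini-Hochberg over the 5909 genes tested. A gene was called at an adjusted p under 0.05, and "rose" and "fell" are used of called genes. Errors of log2 fold changes are SE and intervals are 95%. Totals of 26674458 to 34614232 counts gave subunit genes at least 3146 counts, so the spread between replicates limits their precision more than counting. Promoter windows were read from the RefSeq R64 genome, in which the members have the coordinates of the deposited table, and near-identical copies were searched with BLAST at 95% identity. The fit was tested on simulated data with known changes.

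The members and gene lists were chosen with earlier results of these data known. All 34 members were named. Values in every library were given for RPN4, RPN14 and, in each subassembly, the genes with the highest and lowest log2 fold change in ubc9-6 and in Tfg1-HA against W303a. In each other list, up to 4 called genes with the largest change per comparison were eligible to be named, besides the regulators of RPN4 and UBR2. Alternatives were DESeq2 1.42.0, DESeq2's size-factor method (RLE) in edgeR, a block for the replicate number, no filter, a minimum of 10 counts in each library, only the 4 libraries compared, and leaving out each library. Removal of length and GC trends and a block with the ubc9-6 numbers exchanged were chosen after seeing the data.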

Additional observations from a re-analysis of the deposited data

How the results depend on the processing

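For 25 named gene values, 399 estimates under alternative settings were made, of which 329 kept their direction and side of the threshold, 69 kept their direction but were no longer past it, and 1 reversed, PUP3 in Tfg1-K60,61R-HA against W303a (-0.00903 with length and GC trends removed, an alternative chosen after seeing the data). That setting also gave 0 subunits higher in ubc9-6, where the median fell to 0.0388, and 4 higher and 2 lower in Tfg1-HA (median 0.0409). In Tfg1-K60,61R-HA against W303a it kept 4 of the main calls, added RPN3, RPN7, RPN8 and RPN9 as higher and called 2 lower (median 0.052). The median difference of mutant effects in that setting was 0.0365. The cause was not tested. In ubc9-6 the fit of only the 4 libraries compared called 7 subunits and 2090 genes. DESeq2 called 36 genes, against 0, in Tfg1-K60,61R-HA against Tfg1-HA. With 1 library left out at a time, subunits called higher ranged from 0 to 7 in ubc9-6 (all genes 262 to 1921, subunit median 0.0616 to 0.0997), from 2 to 10 in Tfg1-HA (1560 to 3031, 0.0495 to 0.0883) and from 6 to 13 in Tfg1-K60,61R-HA against W303a (1959 to 3125, 0.0925 to 0.0976). In Tfg1-K60,61R-HA against Tfg1-HA all genes called ranged from 0 to 446 (median 0.0106 to 0.0534), with 0 subunits in each, and for the difference of mutant effects from 94 to 672 (median 0.0332 to 0.0743). In ubc9-6 the highest counts came without Tfg1-K60,61R-HA replicate 2 (7 subunits) and replicate 1 (1921 genes), and the lowest count of genes, 262, without ubc9-6 replicate 2.

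The labels do not say whether libraries with the same replicate number were grown together, and the main fit did not treat them as pairs. Correlations of the replicate differences between strains ran from -0.19 to 0.12, which does not settle this. With a block for the replicate number, 2, 6, 0 and 11 subunits were called higher in ubc9-6, in Tfg1-HA, between the Tfg1 strains and in Tfg1-K60,61R-HA against W303a, with 1107, 2480, 0 and 2847 genes in all and 253 for the difference of mutant effects, and RPN7 was not called in Tfg1-HA (adjusted p = 0.056). Since W303a and ubc9-6 correlated at -0.19, a block with the ubc9-6 numbers exchanged was added after seeing the data and called 4 subunits and 1282 genes in ubc9-6 and 1 subunit lower in Tfg1-K60,61R-HA against W303a. RLE normalization and other filters on low counts moved no count or median beyond these limits.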

Other observations

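Several genes share their PACE with a subunit gene across a divergent promoter. Of the 43 genes outside the members with an exact match in their window, 7 shared the same physical site with a member, and their values are given here beside those of the member. MPO1, which encodes a dioxygenase of fatty acid oxidation, rose in ubc9-6 (log2 fold change 0.38 ± 0.10 SE, edgeR adjusted p = 0.0334) and in Tfg1-HA (0.73 ± 0.10, adjusted p = 0.000759), where its neighbour SCL1 stood at 0.13 (not called) and 0.15 (called). ALG13, a subunit of an enzyme of N-glycosylation, rose in both (0.32 and 0.45, adjusted p = 0.0159 and 0.00138), and its neighbour RPT6 stood at 0.06 and 0.05, not called. In Tfg1-HA the translation factor gene GCD1 fell (-0.18 ± 0.05, adjusted p = 0.026) where its neighbour RPT4 rose by 0.19, the ribosome biogenesis gene NOP14 fell (-0.47 ± 0.07, adjusted p = 0.00086) with RPN5 at 0.00, and the phosphatase regulator gene YPI1 rose (0.26 ± 0.08, adjusted p = 0.0235) with RPN11 at -0.13. YTH1 beside RPN7 and YOL038C-A beside PRE6 were not called in ubc9-6 or Tfg1-HA. The differences within these pairs were not tested. Without the 7 genes, 10 of the remaining 36 rose and 3 fell in ubc9-6, and 8 rose and 8 fell in Tfg1-HA.

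Over the 8 libraries, and among 5664 genes outside the members with a mean of at least 50 counts, the genes whose log2 CPM was most like the mean of the subunits were OPI10 (Pearson r = 0.97), MOB1 (0.97) and EMI1 (0.96), and those most like RPN4 were RIB4 (0.97), SGA1 (0.97) and TUB1 (0.96). None of the 10 nearest genes for either pattern was in a fixed list or had an exact PACE. The libraries fall into strains, so these values are descriptions of 4 pairs of libraries and were not tested.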
